A study of Mus musculus with 13 samples.

Results

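The genes described here encode the subunits and assembly factors of the mitochondrial respiratory chain. Members were taken by symbol: every gene whose annotated symbol begins with Nduf, Sdha, Sdhb, Sdhc, Sdhd, Uqcr, Cox4, Cox5, Cox6, Cox7, Cox8 or Atp5, together with Cycs and Cyc1. This gave 89 of the 12394 genes on the array, of which 80 are subunits of complexes I to V, 8 are assembly factors and 1 is cytochrome c. All samples were primary keratinocytes of the mouse, the cells that build the epidermis, infected with a retrovirus for DNp63alpha, an isoform of p63, joined to an estrogen receptor domain that tamoxifen activates. The 12 treated samples covered 20 to 240 min after tamoxifen at intervals of 20 min, and 1 untreated sample of the infected cells was the baseline at 0 min. Total RNA was measured on 1 Affymetrix array per time, with no replicate. Neither tamoxifen-treated cells without the fusion nor a time course without tamoxifen was analysed here, so induction of the fusion, tamoxifen itself and time in culture cannot be told apart.

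The respiratory chain passes electrons from NADH and succinate to oxygen in the inner mitochondrial membrane and uses the energy to pump protons. Complex I (NADH dehydrogenase) and complex II (succinate dehydrogenase) feed electrons into ubiquinone, complex III passes them to cytochrome c, complex IV (cytochrome c oxidase) hands them to oxygen, and complex V (ATP synthase) lets the protons flow back to make ATP. Most subunits are encoded in the nucleus and imported, and their promoters are known for sites of NRF1 and of ETS-family factors such as GABP.

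The promoters of 4 members that rose over the course are printed as examples of the NRF1 motif within the 120 bases before the annotated start. Matches there also occur in Ndufa5 and Atp5c1, which rose, and in Ndufs5, Cox6a1, Atp5k and Ndufaf4, which did not. The sequences are from RefSeq (GRCm38.p6), minus strand, written 5′ to 3′ and ending at the base before the start, with matches to the NRF1 or ETS motif on either strand in capitals. Ndufa8 encodes an accessory subunit of complex I, Sdha and Sdhd the flavoprotein and a membrane anchor of complex II, and Atp5g2 a subunit of the membrane ring of complex V.
Ndufa8, chr2:36049339-36049458: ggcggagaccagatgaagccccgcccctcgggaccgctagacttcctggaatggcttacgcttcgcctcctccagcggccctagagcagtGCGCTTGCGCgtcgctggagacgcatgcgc
Sdha, chr13:74350241-74350360: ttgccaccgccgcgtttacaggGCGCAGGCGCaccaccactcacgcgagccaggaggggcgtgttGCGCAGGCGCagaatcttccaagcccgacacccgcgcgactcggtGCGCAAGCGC
Sdhd, chr9:50603850-50603969: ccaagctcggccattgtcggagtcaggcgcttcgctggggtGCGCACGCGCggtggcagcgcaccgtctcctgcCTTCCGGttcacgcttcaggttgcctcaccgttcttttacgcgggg
Atp5g2, chr15:102671048-102671167: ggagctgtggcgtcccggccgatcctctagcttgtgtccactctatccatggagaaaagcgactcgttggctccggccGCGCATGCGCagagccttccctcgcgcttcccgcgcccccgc

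Of the 89 members, 74 had a promoter in the RefSeq table, a window of 300 bases from 250 before to 50 after the start. The NRF1 motif was searched as GCGCA and GCGC with any 1 base between them, the ETS motif as CCGGAAG, the YY1 motif as AAGATGGCG and a p63-like pair as CATG and CATG with any 6 bases between them, each on both strands, and overlapping matches of different motifs counted for each. NRF1 matches stood in 17 members (23.0%), against 12.9% of the 6066 tested genes with a promoter. ETS matches stood in 20 members (27.0%) against 22.3%, YY1 matches in 6 (8.11%) against 4.07%, and the p63-like pair in 0 against 0.363%. Among members that rose, 11 of 36 promoters held the NRF1 motif, against 6 of 35 among tested members that did not rise, and the ETS motif stood in 10 of 36 against 10 of 35. Complex V had the NRF1 motif in 6 of 15 promoters and complex I in 4 of 30. These matches are descriptions of letters in a window and were not tested.

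Probe sets were read as deposited intensities, with array medians between 237.4 and 251.5. Pairs of arrays had Spearman correlations between 0.9825 and 0.9973 over all probe sets, and pairs that held the 200 or 220 min array with another array lay between 0.9825 and 0.9936. Of 10 tested keratinocyte markers 2 rose, Krt5 at 1.08-fold (limma adjusted p = 0.00803) and Trp63 at 1.20-fold (adjusted p = 0.0426, lost on omitting 0, 20, 40, 60, 140, 160, 180 or 200 min), and 0 fell. Krt5 and Krt14 were at the 99.9 and 100.0 percentiles of mean level and Krt15 at the 23.6 percentile, too dim to test. The summed intensity of that list lay between 63796 and 67131 at 80 to 240 min, against 63056 to 66115 at 0 to 60 min. The 8 melanocyte markers, with Dct and Tyrp1 at the 93.1 and 88.4 percentiles, summed to 6456 to 7182 against 6807 to 7779, and 1 of them fell, Mitf at 0.78-fold (adjusted p = 0.00699, and 0.0621 without the 200 and 220 min arrays). Of 13 fibroblast markers 8 were too dim to test and 2 rose, Fbln1 at 1.17-fold (adjusted p = 0.00244) and Vim at 1.26-fold (adjusted p = 0.0481, kept in 3 of the 13 fits that left out 1 array), and the list summed to 3045 to 3615 against 3087 to 3491. Of 12 immune markers 10 were too dim, with Ptprc at the 1.2 percentile, and the list summed to 1995 to 2277 against 2105 to 2355. Its 2 tested markers were Cd68, at the 58.0 percentile, which fell to 0.68-fold (adjusted p = 0.000978), and Csf1r, at the 63.9 percentile, which did not pass (1.03-fold, adjusted p = 0.784). The ratio of 3′ to 5′ probe sets lay between 0.899 and 0.937 for Gapdh and between 1.160 and 1.271 for Actb, with the highest Actb ratios at 80 and 100 min. The part of these cells, and of RNA integrity, in the results was not tested. In RNA of a whole culture, fewer cells of a type and less RNA per cell cannot be told apart.

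Of 85 members bright enough to test, 40 rose along a straight line in time by small amounts, 1 fell and 44 did not pass, whereas 22.3% of all 7436 tested genes rose and 17.6% fell, 39.9% in all (limma, Benjamini-Hochberg adjusted p under 0.05). The median member changed 1.09-fold over the 4 h of the course, against 1.01-fold for all tested genes. The 40 that rose did so by 1.06-fold to 1.55-fold, with a median of 1.17-fold. Folds are on the scale of log2(intensity + 16) and are relative to the bulk of genes, since the arrays had been brought to a common level. Since the labels do not say whether the samples were separate cultures, a p-value here reflects only the scatter among the 13 arrays, which may be technical. The count of risers ranged from 29 without the untreated array to 41 over the fits that left out 1 array, and 27 of the 40 passed in all of them. Without the 200 and 220 min arrays 27 of the 40 still rose, where 17.5% of all genes did. The only member that fell, Ndufaf1, did not pass without the 240 min array.

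**Figure D1:**
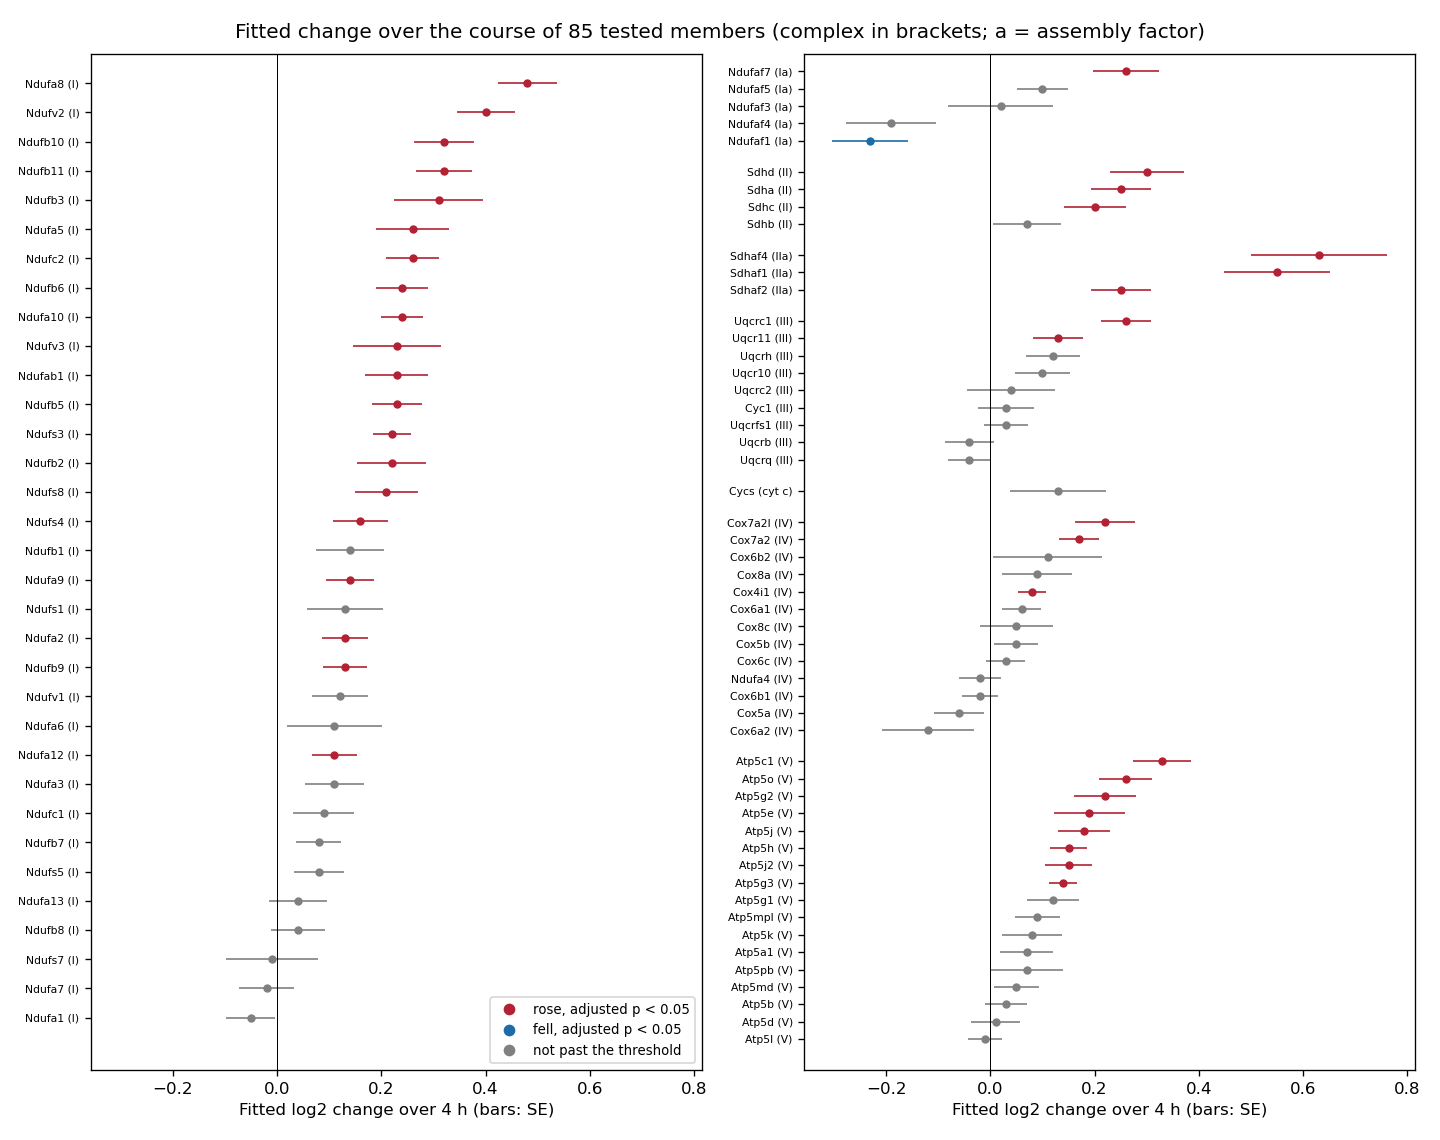
Fitted log2 change over 4 h with its standard error for each tested member, grouped by complex, with red points for members that rose, blue for the member that fell and grey for those not past the threshold. Complexes I, II and V lie mostly to the right of 0, and those of complexes III and IV cluster near it.

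The complexes differed in how many members passed. In complex I 20 of 33 tested subunits rose, in complex II 3 of 4, in complex V 8 of 17, in complex IV 3 of 13 and in complex III 2 of 9, and none of these 76 subunits fell. The median fold over 4 h was 1.17 for complex II, 1.10 for complex I, 1.09 for complex V, 1.04 for complex IV and 1.03 for complex III. The difference between complexes was not tested. Without the 200 and 220 min arrays the counts were 13 in complex I, 2 in II, 6 in V, 1 in IV and 1 in III, where 17.5% of all genes rose. The 4 members too dim to test, all of complex IV, were Cox7c, Cox4i2, Cox7a1 and Cox8b. Unlike the others, Cox7c is not a tissue isoform, and its probe sets averaged 107.1 and 78.7 intensity units. Probe sets annotated to several genes had been left out, 8 of them with a symbol of the rule. Whether the dim reading of Cox7c reflects the transcript or the probe sets was not tested.

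**Figure D2:**
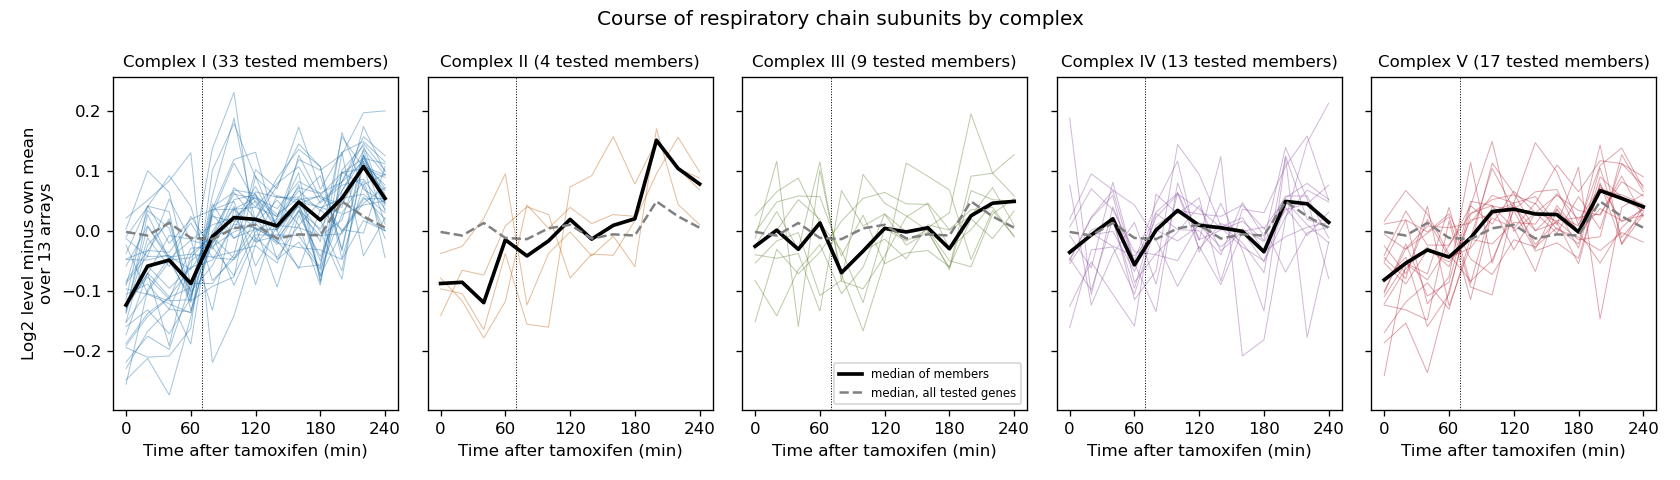
Deviation of each tested subunit (thin lines) from its own mean over the 13 arrays, in log2 units, against minutes after tamoxifen, with 1 panel per complex, the median as a thick line, the median of all tested genes dashed and the boundary between 60 and 80 min dotted. The complex I median was -0.124 in the untreated array and 0.107 at 220 min, and that of complex III stayed between -0.070 and 0.049.

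In complex I the median deviation was -0.124 at 0 min, -0.088 at 60 min, -0.010 at 80 min, 0.107 at 220 min and 0.054 at 240 min. Of its 33 subunits, 2 were above their own mean in the untreated array (6.1%, against 49.5% of all tested genes) and 31 at 220 min (93.9% against 58.1%). The median deviation of all tested genes was -0.002 at 0 min and 0.024 at 220 min. Across all 85 members, 28 had their lowest value in the untreated array (32.9%, against 9.01% of all genes) and 29 their highest at 220 min (34.1% against 13.9%). The untreated state is 1 array, and how far it departs by chance from other untreated cultures was not tested.

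The core of complex I, which carries the flavin and iron-sulfur centres, had 3 risers among 6 tested subunits. Ndufv2, an iron-sulfur subunit of the NADH-oxidising module, read 2443, 2526, 2790, 2727, 2931, 2726, 2847, 2882 and 2815 intensity units from 80 to 240 min, against 2230, 2298, 2263 and 2444 from 0 to 60 min. All but the 80 min array lay above every earlier array. Its fitted change over 4 h was 0.40 ± 0.0556 (log2, SE, 13 arrays, limma adjusted p = 0.000163), 1.32-fold. Ndufs1, the largest iron-sulfur subunit, read 1216 to 1395 with a median of 1304 at 80 to 240 min, against 1171 to 1251 at 0 to 60 min, and did not pass along the line (adjusted p = 0.183). Ndufv1, which binds NADH and flavin, gave 2067 to 2421 against 2090 to 2179, 1.08-fold (adjusted p = 0.096). Ndufs7, an iron-sulfur subunit near the quinone site, had the slope of the complex closest to 0, with 2029 to 2591 against 2401 to 2590 and 0.99-fold.

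Among the 27 accessory subunits of complex I, which surround the core and stabilise it, 17 rose. Ndufa8 read 2494, 2604, 2593, 2538, 2712, 2679, 2729, 2865 and 2871 from 80 to 240 min, against 2098, 2152, 2062 and 2258 from 0 to 60 min. Every later array exceeded every earlier array. It rose by 0.48 ± 0.0564 (log2, SE, 13 arrays, limma adjusted p = 9.81e-05), 1.40-fold, and the call held in each of the fits without 1 array. Ndufb10, in the membrane arm, read 1799 to 2066 with a median of 1899 against 1557, 1626, 1669 and 1766, 1.25-fold (adjusted p = 0.000627). Ndufb11, an X-linked membrane-arm subunit, read 2594 to 2802 with a median of 2645 against 2214, 2291, 2341 and 2218, also 1.25-fold (adjusted p = 0.000507). For both the later and earlier arrays did not overlap. The other accessory risers changed 1.08-fold to 1.24-fold, and the calls of Ndufa2, Ndufa9, Ndufa12, Ndufb2, Ndufb9, Ndufs4 and Ndufv3 were lost when at least 1 array was left out.

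**Figure D3:**
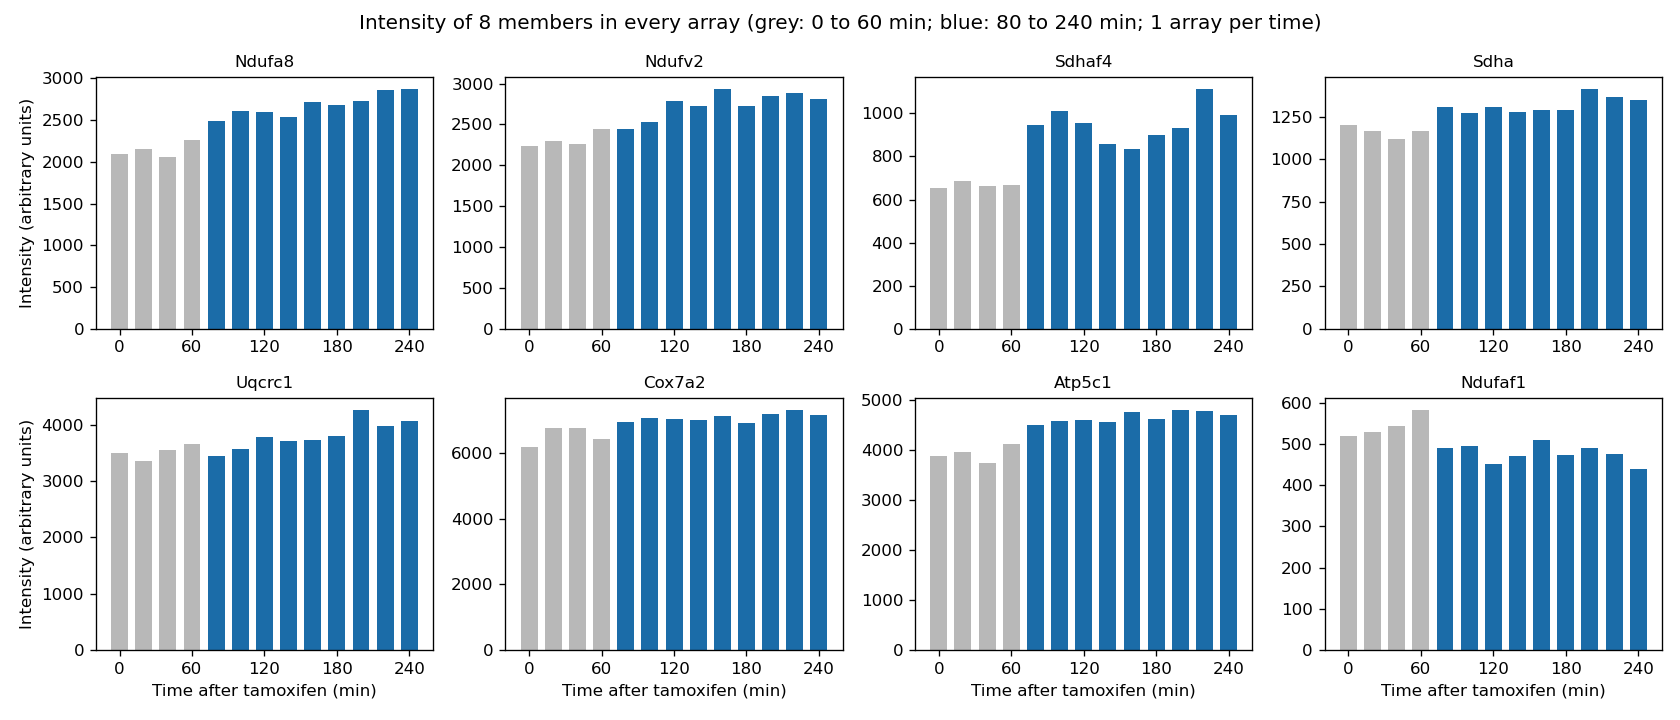
Intensity of 8 members in each of the 13 arrays (blue for 80 to 240 min, grey for 0 to 60 min), in time order, with axes that start at 0. Ndufa8, Sdhaf4, Sdha, Cox7a2 and Atp5c1 have every array from 80 min on above all arrays up to 60 min.

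Complex II, which is also an enzyme of the tricarboxylic acid cycle, had risers in its flavoprotein and both anchors. Sdha read 1310, 1275, 1307, 1282, 1295, 1293, 1415, 1368 and 1352 from 80 to 240 min, against 1203, 1171, 1121 and 1170 from 0 to 60 min, with no overlap. It rose 1.19-fold, by 0.25 ± 0.0576 (log2, SE, 13 arrays, limma adjusted p = 0.00321). Sdhd read 1846, 1840, 2167, 2195, 2297, 2175, 2285, 2213 and 2159 against 1923, 1913, 1834 and 2004. Here the 80 and 100 min arrays lay within the earlier range and all later arrays above it, and the fitted change was 1.23-fold (0.30 ± 0.0706, adjusted p = 0.0041). Sdhc, the other anchor, read 985 to 1161 with a median of 1061 against 942 to 1047, 1.15-fold (adjusted p = 0.0153), a call lost when either the 0 or the 220 min array was omitted. Sdhb, the iron-sulfur subunit, did not pass, with 2608 to 3203 against 2769 to 3038 and 1.05-fold (adjusted p = 0.438).

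All 3 tested assembly factors of complex II rose, and Sdhaf4 and Sdhaf1 had the largest folds of the 85 tested members. Assembly factors fall outside the rule for named members and were chosen after their values were seen. Sdhaf4, which helps to mature the flavoprotein, read 947, 1010, 957, 859, 835, 901, 931, 1112 and 990 from 80 to 240 min, against 652, 684, 665 and 669 from 0 to 60 min. The groups did not overlap, and the fitted change was 1.55-fold, 0.63 ± 0.131 (log2, SE, 13 arrays, limma adjusted p = 0.00174). Sdhaf1, which acts in iron-sulfur maturation of Sdhb, read 644 to 802 against 470 to 541, 1.46-fold (adjusted p = 0.000801). Sdhaf2, needed to attach flavin to Sdha, read 872 to 1011 against 808 to 865, 1.19-fold (adjusted p = 0.00314). Of the 5 tested complex I assembly factors Ndufaf7 rose 1.20-fold (adjusted p = 0.00475) and Ndufaf1 fell. Ndufaf1 read 440 to 509 with a median of 475 at 80 to 240 min, against 519, 528, 544 and 581 at 0 to 60 min, without overlap. Its fitted fold was 0.85 (adjusted p = 0.0197), a call lost without the 240 min array.

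In complex III 2 of 9 tested subunits rose (22.2%), near the 22.3% of all tested genes. Uqcrc1, an accessory subunit facing the matrix, read 3452, 3560, 3787, 3707, 3725, 3791, 4253, 3970 and 4058 from 80 to 240 min, against 3504, 3364, 3548 and 3653 from 0 to 60 min. The 80 and 100 min arrays fell in the earlier range and the highest value was at 200 min. Its change was 0.26 ± 0.0478 (log2, SE, 13 arrays, limma adjusted p = 0.000833), 1.20-fold. Uqcr11, a small accessory subunit, read 3102 to 3311 against 2849 to 3098, 1.09-fold (adjusted p = 0.0453), a call lost on omitting the 0, 20, 40, 60, 140, 160, 220 or 240 min array. The catalytic subunits that carry the haem and the iron-sulfur centre did not pass. Cyc1, cytochrome c1, read 3419 to 3776 against 3579 to 3961, 1.02-fold (adjusted p = 0.701), and Uqcrfs1, the Rieske protein, 3438 to 3794 against 3553 to 3743, 1.02-fold (adjusted p = 0.535). Cycs, the soluble electron carrier between complexes III and IV, read 3755 to 4745 with a median of 4447 against 3816 to 4067, and did not pass along the line (1.09-fold, adjusted p = 0.298).

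In complex IV 3 of the 13 tested members rose (23.1%, near the 22.3% of all tested genes), all with small folds. Without the tissue isoforms it was 3 of 10 (30.0%), and the median fold was 1.04 with or without them. Cox7a2, the ubiquitous isoform of a small subunit, read 6921 to 7300 with a median of 7075 at 80 to 240 min, against 6175, 6758, 6778 and 6418 at 0 to 60 min, without overlap. It rose 1.12-fold (0.17 ± 0.0391, log2, SE, 13 arrays, limma adjusted p = 0.00363). Cox7a2l, known for its part in joining complexes III and IV, read 3781 to 4476 with a median of 4154 against 3588 to 3868, 1.17-fold (adjusted p = 0.00753), and did not pass without the 200 and 220 min arrays (adjusted p = 0.0606). Cox4i1, the main isoform of the regulatory subunit, read 7760 to 8331 against 7678 to 7883, 1.06-fold (adjusted p = 0.0276), a call lost without the 0, 220 or 240 min array. Several subunits present in every tissue did not pass: Cox5b was at 1.04-fold (adjusted p = 0.323), Cox6a1 at 1.05-fold (0.189), Cox8a at 1.07-fold (0.286), Ndufa4 at 0.99-fold (0.741) and Cox6b1, the slope closest to 0, at 0.99-fold (0.705). Of the isoforms known from other tissues, Cox6a2 read 289 to 360 against 305 to 377 and did not pass (adjusted p = 0.317). Cox4i2 read 174 to 220 against 219 to 280, Cox7a1 87 to 99 against 90 to 110 and Cox8b 109 to 120 against 101 to 120, all too dim to test.

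In complex V 8 of 17 subunits rose (47.1%, against 22.3% of all tested genes). By part these were 2 of 5 in the catalytic F1 head, 2 of 3 in the c ring and 3 of 4 in the stalk. Among the other membrane subunits it was 1 of 5 (20.0%), near the share of all tested genes. Without the 200 and 220 min arrays the counts were 1, 2, 3 and 0 in that order, where 17.5% of all genes rose. Atp5c1, the gamma subunit that turns inside the head, read 4504, 4582, 4607, 4559, 4769, 4621, 4791, 4776 and 4704 from 80 to 240 min, against 3880, 3969, 3745 and 4120 from 0 to 60 min. The groups did not overlap, and the 9 later arrays spanned 4504 to 4791. The change was 1.26-fold, 0.33 ± 0.0554 (log2, SE, 13 arrays, limma adjusted p = 0.00043). The alpha and beta subunits around it did not pass: Atp5a1 read 5863 to 6975 against 6182 to 6417 (1.05-fold, adjusted p = 0.267) and Atp5b 7158 to 8101 against 7517 to 7678 (1.02-fold, adjusted p = 0.624). Another probe set of Atp5a1 was called higher (0.036 ± 0.0109 log2 per hour, SE, adjusted p = 0.0179). Atp5o, in the stalk, read 3570 to 3964 against 3200 to 3389, 1.20-fold (adjusted p = 0.00126). Atp5g2 read 3437 to 4125 with a median of 3844 against 3358 to 3764, 1.17-fold (adjusted p = 0.00878). Atp5e, the epsilon subunit, read 2814 to 3154 against 2401 to 2793, 1.14-fold (adjusted p = 0.0368), a call lost without the 0, 20, 40 or 220 min array. Atp5l, in the membrane part, had the slope closest to 0, with 5840 to 6169 against 5808 to 6116.

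Among subunits, slopes were smaller for brighter probe sets. Over 73 tested subunits, without the isoforms of other tissues, mean log2 level and slope had a Spearman correlation of -0.48 and a Pearson correlation of -0.47, against a Spearman correlation of -0.06 over all tested genes. Over all 85 tested members the correlations were weaker, -0.30 (Spearman) and -0.14 (Pearson). The points share arrays and the deposited summary, and brightness of different probe sets is not a measure of relative transcript abundance. Of the members 67 lay above the 90th percentile of mean level and 32 of these rose, where 20.7% of all genes above it rose and 23.8% fell. The highest member intensity was 9697, against 19676 for the brightest probe set of the array. Among subunits under a log2 level of 12, 20 of 33 rose in complex I, 3 of 4 in II, 2 of 7 in III, 1 of 2 in IV and 4 of 7 in V. The part of brightness in the order of complexes was not tested.

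**Figure D4:**
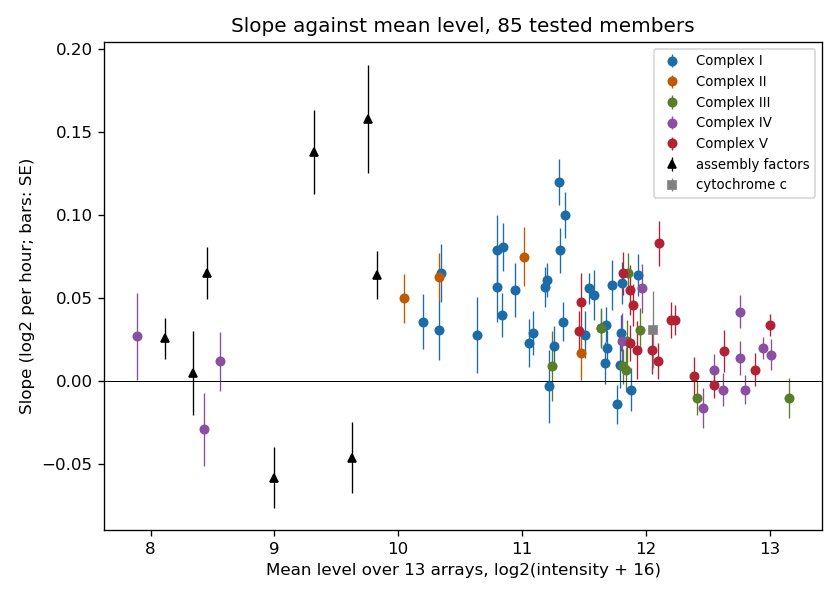
Slope per hour in log2 units against mean log2 level for the tested members, coloured by complex. The Spearman correlation was -0.30 over all 85 tested members and -0.48 over the 73 subunits without tissue isoforms.

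Set as a step, the 9 arrays from 80 to 240 min were compared with the 4 up to 60 min. The boundary was set there because earlier results of these data showed a break between the 60 and 80 min arrays. The step calls, and the overlap of later with earlier arrays given for single members, are therefore not a preset comparison. The shares over all genes used the same boundary. Of the 85 members 36 were higher and 3 lower, against 21.7% and 20.1% of all tested genes, 41.7% in all. Lower calls numbered 5 without the 200 or without the 240 min array. The higher ones were 18 in complex I, 8 in V, 2 in IV, 2 in III, 1 in II, Cycs and 4 assembly factors, and the 3 lower were Ndufaf1, Ndufaf4 and Cox5a. All 9 later arrays lay above all 4 earlier arrays for 23 members and below for 1, where 11.7% and 11.0% of all genes did. The step called 6 members that the line did not, among them Cycs (0.16 ± 0.0519, log2, SE, 13 arrays, limma adjusted p = 0.0239), lost without the 0 or 40 min array. Ndufs1 was called higher (adjusted p = 0.0181) and Cox5a, a matrix-facing subunit of complex IV, lower at 5266 to 5812 against 5693 to 6001, 0.95-fold (adjusted p = 0.0234), and each was lost without the 20 or 40 min array. The lower step of Cox5a depended on the probe set: its step was 0.017 (log2) with the mean of its 3 probe sets, and the other 2 sloped upward without passing (0.028 and 0.023 per hour).

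With a straight line fitted beside the step, 7 of 85 members had a higher step, against 5.1% of all genes. A lower step was called for 1 of 85, against 7.96%. The 7 were Ndufa8, Ndufb3, Ndufb11, Ndufc2, Sdhaf1, Sdhaf4 and Atp5c1, and the lower was Ndufs7, which the step alone did not call (adjusted p = 0.13). The 3 members that were lower by the step alone did not pass beside the line, with adjusted p = 0.167 for Ndufaf1, 0.115 for Ndufaf4 and 0.0511 for Cox5a. With the step as a block no member passed along the line (0 of 85, lowest limma adjusted p = 0.0681), and 1 of all 7436 genes did (0.0134%). An unadjusted p under 0.05 was reached by 22 of 85 members and 1845 of 7436 genes, similar shares. In that fit 70 of 85 members sloped upward (82.4%), against 57.3% of all genes. Within the 80 to 240 min arrays alone 0 members passed in limma (0.0672% of all genes), and 67 sloped upward (78.8% against 58.6% of all genes). There 16 of 85 members and 1360 of 7436 genes had an unadjusted p under 0.05, again similar shares. Within 0 to 60 min 0 passed, 0 at an unadjusted p under 0.05 (719 of all 7436 genes), and 57 sloped upward (67.1% against 49.8%). The boundary of the step came from earlier results of these data. These fits therefore do not establish a step over a gradual change, for these 8 or for the other members.

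Late arrays (180 to 240 min) were also set against early treated arrays (20 to 80 min), which leaves the untreated array out of the contrast. This gave 25 members higher and 1 lower, against 15.1% and 11.1% of all genes, 26.2% in all. The count of higher members was 10 when the 20 or the 220 min array was omitted and 12 when 40 min was. Without the 200 and 220 min arrays 3 of 85 members were higher and 0 lower, against 3.6% and 4.92% of all genes, so the share of members called higher was near the background. With arrays centred on their medians 15 members were higher, and the calls over all genes turned to 10.9% higher and 13.9% lower. The lower call, Ndufaf1, was lost on omitting 20, 40, 60, 140, 180, 220 or 240 min. Of the 40 risers 25 passed here, and 32 passed as a step.

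Chosen probe sets of 12 members end in _s_at and of 6 in _x_at, types that can match several transcripts, among them those of Atp5c1 and Atp5e. Of 21 risers with more than 1 tested probe set, all had other probe sets sloping upward and 15 had another set called higher, with 0 called lower. The risers with no other set called were Cox7a2, Ndufab1, Ndufb9, Ndufs4, Sdhaf2 and Sdhc, so their calls depended on the probe set chosen. Of 21 members that did not rise and had several tested sets, 7 had another set called higher and 0 lower, so that their result depended on the probe set chosen. These were Atp5a1, Atp5k, Cox6c, Cycs, Ndufb7, Ndufc1 and Ndufv1.

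Other mitochondrial gene lists were read beside the members, on the same line and background (22.3% higher, 17.6% lower). Of 35 tested assembly factors of the respiratory chain, 8 of them members, 14 rose and 3 fell. After Sdhaf4 and Sdhaf1 the largest slopes were those of Coa6 (1.45-fold, limma adjusted p = 0.00163) and Acad9 (1.37-fold, adjusted p = 0.000189). Besides Ndufaf1 the lower ones were Surf1 (0.83-fold, adjusted p = 0.0168) and Ttc19 (0.88-fold, adjusted p = 0.0136). The call of Surf1 was lost without the 20 min array and that of Ttc19 without 0 or 20 min. All 10 tested genes of the carrier and channel list rose: 6 Slc25 carriers of the inner membrane, the outer-membrane channels Vdac1, Vdac2 and Vdac3, and the creatine kinase Ckmt1. The list was led by Slc25a10, the dicarboxylate carrier (1.57-fold, adjusted p = 0.000269), and Slc25a4, an ADP/ATP carrier (1.34-fold, adjusted p = 0.000213). The calls of Slc25a3 and Ckmt1 were lost without the 200 and 220 min arrays (adjusted p = 0.131 and 0.0823), and also on omitting 0, 20, 40, 60, 160, 180, 200 or 220 min for Slc25a3 and 20, 40 or 220 min for Ckmt1. Of 20 tricarboxylic acid cycle and pyruvate dehydrogenase genes 11 rose and 1 fell, with Pdk1, a kinase that inhibits pyruvate dehydrogenase, at 1.92-fold (adjusted p = 0.00763). Dld, the shared dehydrogenase component, was at 0.74-fold (adjusted p = 0.0132), a call lost without the 200 and 220 min arrays (adjusted p = 0.109). Of 9 antioxidant genes 5 rose, among them Nnt, which makes mitochondrial NADPH (1.44-fold, adjusted p = 0.00177), and Prdx3, a peroxiredoxin (1.32-fold, adjusted p = 0.00191). The 27 import genes split into 5 higher and 6 lower, with Grpel2, a cochaperone of the import motor, at 0.48-fold (adjusted p = 0.000658). Of 18 regulators of mitochondrial biogenesis 2 rose and 6 fell. The 2 were Esrra at 1.23-fold (adjusted p = 0.0335) and Polg2 at 1.19-fold (adjusted p = 0.0339), both lost without the 200 and 220 min arrays (adjusted p = 0.145 and 0.129). Among the 6 were Myc at 0.69-fold (adjusted p = 0.00046), Pprc1, a PGC-1-related coactivator, at 0.73-fold (adjusted p = 0.0104) and Gabpb1, a GABP subunit, at 0.73-fold (adjusted p = 0.00226). Nrf1 (0.90-fold, adjusted p = 0.293) and Gabpa, another GABP subunit (0.79-fold, adjusted p = 0.171), did not pass. The only gene of the mitochondrial genome on the array, ND5 of complex I, read 5518 to 7805 at 80 to 240 min against 5725 to 7739 at 0 to 60 min and did not pass (0.93-fold, adjusted p = 0.533).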

How the data were processed

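Biotin-labelled cRNA of 13 samples was hybridised to Affymetrix arrays, per the labels' protocols. The values deposited by the authors are intensities on a linear scale, 1 per probe set and array, already brought to a common level; the software behind the summary and scaling is not given in the sources. Intensities were used as log2(intensity + 16). Of 22690 probe sets 20393 had 1 gene, 691 several and 1606 none, and only the first entered. For each gene the probe set of highest mean over 13 arrays was kept, and genes under the 40th percentile of mean level (log2 7.83) were left out, which left 7436.

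Fits used limma 3.58.1 (R 4.3.3; eBayes with trend, two-sided, Benjamini-Hochberg over all genes tested): a line in hours, a step between 60 and 80 min, and late against early arrays, in which neighbouring times stand in for replicates. Precision is limited by the number of arrays, with a median residual SD of 0.0873 (log2). Named members were, per complex, up to 4 with the largest slope past the threshold, the slope closest to 0, and a fixed set. Members, lists and the boundary of the step were chosen with earlier results of these data known. The steps were tested on simulated data of 7436 genes: for a log2 change of 0.25 the line recovered 38%, the step 70% and the window 50% of changed genes, and for 0.5 they recovered 85%, 94% and 92%; false calls were 3.1%, 3% and 7.8%. The promoter motifs are textbook consensus letters, and the 90th percentile used to match brightness was chosen after the data were seen. Alternatives covered filters, pseudocounts, normalizations, probe sets, moderation, time scales and arrays left out.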

Additional observations from a re-analysis of the deposited data

How the results depend on the processing

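No paired analysis was possible because each time has 1 array and the labels give no replicate numbers. The 40 risers along the line became 26 on a log2 scale of minutes, and 0 with the step as a block, in 80 to 240 min alone and in 0 to 60 min alone. Leaving out each array gave 29 to 41. The 1 member that fell became 2 with no filter, with a filter at the 20th percentile and with the mean of probe sets, 0 with the block, in either part of the course and on the log2 time scale, and 0 to 1 with each array left out. For the step, higher calls fell to 7 beside a line and ranged from 31 to 40 with each array left out; lower calls were 5 with array weights, 1 beside a line and 2 to 5 with each array left out. For late against early arrays, higher calls were 15 with median centring and 3 without the 200 and 220 min arrays, and 10 to 33 with each array left out. Lower calls there were 0 with no filter, 3 with the mean of probe sets, 3 with array weights, 0 without the 200 and 220 min arrays and 0 to 2 with each array left out. Of the 40 risers 4 sloped downward in 80 to 240 min alone and 9 in 0 to 60 min alone; among named members these were Atp5e (-0.002) and Uqcr11 (-0.004) in the later part and Cox4i1 (-0.012), Cox7a2l (-0.046) and Sdha (-0.054) in the earlier, where fewer arrays were fitted. The step of Cox5a became 0.017 with the mean of its probe sets. The cause of the other shifts was not tested. Of the recomputed values, 867 of 956 for the line, 821 of 857 for the step and 764 of 824 for late against early kept direction and side of the threshold. In the simulation the line recovered 38% of the genes with a log2 change of 0.25. Only 100 of 7436 genes were changed by each size there, whereas the line called 39.9% of all genes in the data. The adjusted threshold was therefore stricter in the simulation, and its recovery does not give the share of members missed. How many changes near 1.1-fold were missed with 13 arrays was not tested. The simulated noise was independent between arrays.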
